A study of Danio rerio with 12 samples.

Results

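The Sox, Fox, T-box, Gata, Klf and Her/Hes families of DNA-binding proteins were followed in zebrafish (Danio rerio) embryos in which the transmembrane semaphorin Sema6A or its receptor PlexinA2 had been targeted. Members were the rows of the expression table whose gene symbol began with sox, fox, tbx, gata or klf, or was her or hes followed by a digit. That gave 43 rows, of which gata1a, foxd1, FOXF1, FOXC1 and tbx16l were set aside, so that 38 of 5134 rows were described. They comprised 5 sox, 11 fox, 5 tbx, 3 gata, 7 klf and 7 her or hes rows. TBXAS1 encodes thromboxane A synthase and shares only the letters tbx with the T-box genes, so it is given apart from the other 37. Symbols in capitals, 20 of the 38, do not tell apart the a and b copies of a duplicated zebrafish gene.

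All embryos carried the rx3:GFP reporter, named for an eye field gene, and were raised at 25 °C. The sema6A morphant and plexinA2 morphant groups had received an antisense morpholino, an oligonucleotide that blocks translation or splicing of its target RNA, before the first cleavage. The control group is labelled wild-type and titled UIC, which the labels do not spell out, and no injection is named for it, so the effect of being injected and the effect of losing the target cannot be told apart. RNA was taken at 18 hours after fertilisation, a stage also given as 18 somites, and each group had 4 one-colour arrays called biological replicates. Whether they came from separate clutches is not stated, so p values measure only the spread between these arrays.

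These families divide the embryo among them. SoxB1 and SoxC proteins keep neural progenitors and then drive neuronal differentiation, while SoxF proteins act in endothelium. Forkhead (Fox) factors have roles as varied as motile cilia, ionocytes and the cell cycle, T-box factors pattern mesoderm, and Gata and Klf factors serve blood, vessels, heart and gut. Her and Hes proteins are repressors, many of them induced by Notch, and in the presomitic mesoderm several oscillate as the segmentation clock.

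All values are intensities from whole-embryo RNA on the log2 scale, so fewer cells of a type and less RNA per cell cannot be told apart. A difference of 1 on this scale is a change by a factor of 2. Array medians lay between 608 and 708. Control replicate 2 stood apart, with a mean rank correlation of 0.835 with the other 11 arrays, and sema6A replicate 1 had 0.876, against 0.907 to 0.932 for the remaining 10. The median SD of the 37 members was 0.47 in sema6A morphants, 0.34 in plexinA2 morphants and 0.57 in controls (n = 4 each), close to the 0.42, 0.30 and 0.54 of all rows. Of the 38 rows, 11 lay in the dimmest 25 percent of the table, where background correction can compress differences, and 9 in the brightest 25 percent.

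Few members passed the test in either morphant. In sema6A morphants SOX11 fell and no member rose. That was 1 of 38 rows against 3.12% of all rows past a limma adjusted p under 0.05, of which 1.13% fell and 1.99% rose. In plexinA2 morphants foxj1b rose and no member fell, 1 of 38 against 2.86% of all rows (2.61% rose and 0.253% fell). Between the morphants no member passed, against 1.71% of all rows (0.448% higher and 1.27% lower in sema6A morphants).

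At an unadjusted p under 0.05 there were 10 of 38 members in sema6A morphants, against 20.6% of all rows, and 7 of 38 in plexinA2 morphants, against 17.2%. Between the morphants there were 7 of 38, against 26.8%, with KLF9 higher in sema6A morphants (11.7% of all rows were) and 6 lower (15.1% of all rows were). For the 38 rows kept, the shares past the adjusted threshold were near or below those of all rows. These counts leave out gata1a, set aside at the start, which fell in sema6A morphants (−1.59, limma adjusted p = 0.0103).

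The members leaned downward. In sema6A morphants 24 of 37 were below control with a median difference of −0.20, while the median of all rows was 0.06 and 54.9% of them were higher. In plexinA2 morphants 25 of 37 were below, with the same median of −0.20 beside 0.04 over all rows. Both comparisons use the same 4 control arrays, and the sema6A median was −0.0042 without control replicate 3. The plot of all members shows each difference with its error.

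**Figure D1:**
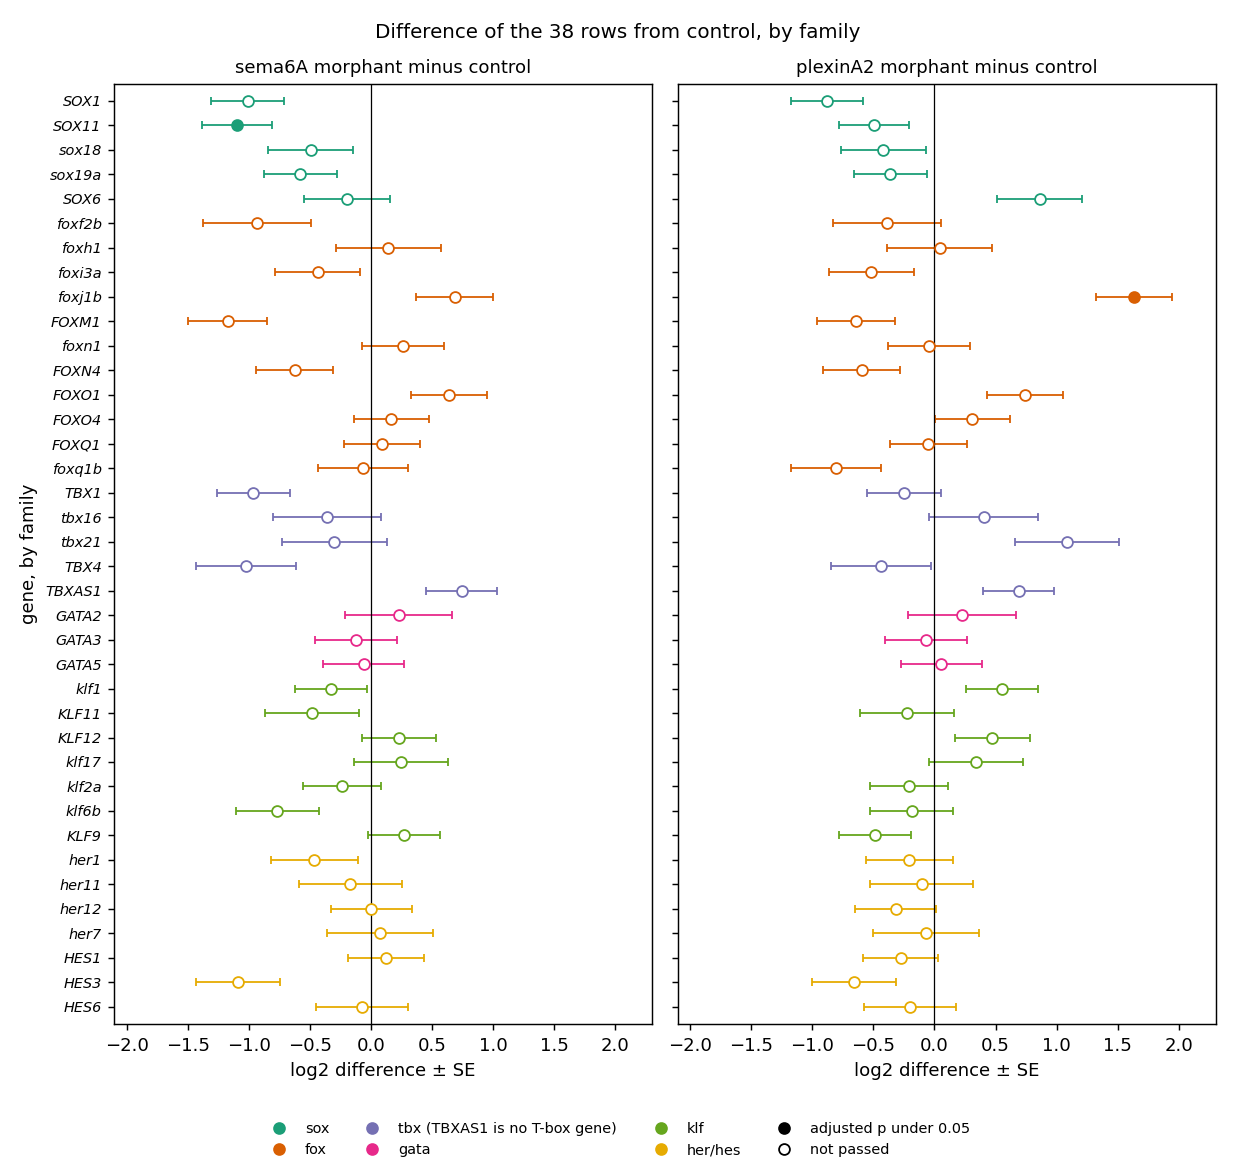
Log2 difference from control (x axis, ± SE of the limma fit, n = 4 arrays per group) for each of the 38 rows (y axis, by family), in sema6A morphants on the left and plexinA2 morphants on the right. Filled points passed at an adjusted p under 0.05: SOX11 at −1.10 in sema6A morphants and foxj1b at 1.63 in plexinA2 morphants.

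Genes of the nervous system were lower in sema6A morphants in 6 of 7 cases, with a median difference of −0.63, and in plexinA2 morphants in 7 of 7, with a median of −0.49. SOX11, SOX1, sox19a, HES3, FOXN4, HES1 and GATA3 made up the group. The single call among them was SOX11 in sema6A morphants. GATA3 was above control in some fits without 1 array, by up to 0.03 in sema6A and 0.05 in plexinA2 morphants. The median deviation of the 7 genes was 0.06 in control replicate 2, below plexinA2 replicates 1 and 2 (0.18 and 0.16).

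SOX11 (ENSDARG00000077811) is a SoxC gene of differentiating neurons. Its log2 values were 8.27, 8.04, 7.40 and 8.25 in sema6A morphants (replicates 1 to 4), 8.79, 8.81, 8.21 and 8.56 in plexinA2 morphants, and 9.37, 9.19, 8.91 and 8.87 in controls. Every array of both morphants lay below every control. The log2 difference in sema6A morphants was −1.10 ± 0.29, or 2.14-fold lower (limma adjusted p = 0.0433, errors here and below being SEs of the fit with 4 arrays a group). The call was lost in 9 of the 12 fits without 1 array (sema6A replicate 2 or 3, any plexinA2 array, or control replicate 1, 2 or 3), with adjusted p values up to 0.151. Over the 12 fits the difference lay between −1.19 and −0.90. It was also lost when only sema6A and control arrays were fitted (adjusted p = 0.151) and with a trended, robust prior (0.0571). In plexinA2 morphants the difference was −0.49 ± 0.29 (limma adjusted p = 0.401), and the direct difference of sema6A from plexinA2 morphants was −0.61 ± 0.29 (limma adjusted p = 0.183).

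SOX1, a SoxB1 gene of neural progenitors, had the same arrangement. Values were 5.95, 6.31, 6.53 and 6.79 in sema6A morphants, 6.64, 6.62, 6.19 and 6.64 in plexinA2 morphants, and 7.72, 7.86, 7.09 and 6.94 in controls. Again no morphant array reached the lowest control. The differences were −1.01 ± 0.30 in sema6A morphants (limma adjusted p = 0.0648) and −0.88 ± 0.30 in plexinA2 morphants (limma adjusted p = 0.137), neither of which passed. With 1 array fewer the sema6A difference of SOX1 passed, without sema6A replicate 4 (−1.14, limma adjusted p = 0.0498) or control replicate 4 (−1.16, 0.0452). With array weights, which count arrays that depart from the fit less and call 1407 of all rows in sema6A and 1629 in plexinA2 morphants, both passed (limma adjusted p = 0.0039 for sema6A and 0.00558 for plexinA2). SOX1 lay at the 8.9th percentile of row means, a dim signal.

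sox19a, a zebrafish SoxB1 gene of the neural plate, spanned 13.05 to 13.86 in sema6A morphants, 13.08 to 13.90 in plexinA2 morphants and 13.38 to 14.19 in controls. The groups overlapped through control replicate 2, the lowest control at 13.38. The differences of −0.58 ± 0.30 and −0.36 ± 0.30 did not pass (limma adjusted p = 0.284 and 0.573).

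HES3, a repressor of neurogenesis in the mouse, had values of 10.57, 9.73, 9.79 and 10.25 in sema6A morphants, 10.80, 10.88, 9.99 and 10.38 in plexinA2 morphants, and 11.73, 10.88, 11.66 and 10.42 in controls. Control replicates 1 and 3 stood clear of the morphants, replicate 2 was level with the highest plexinA2 array, and replicate 4 lay among the morphant values. The differences were −1.09 ± 0.34 for sema6A (limma adjusted p = 0.0808) and −0.66 ± 0.34 for plexinA2 (limma adjusted p = 0.341). The sema6A difference of HES3 passed without control replicate 4 (−1.34, limma adjusted p = 0.0406) and with array weights (−1.71, 0.000103). FOXN4, which in zebrafish marks retinal progenitors and spinal interneuron precursors, spanned 6.62 to 7.92 in sema6A morphants, 7.05 to 7.59 in plexinA2 morphants and 7.34 to 8.19 in controls, with differences of −0.63 ± 0.31 and −0.60 ± 0.31 that did not pass.

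HES1, a Notch target in neural progenitors, was not in this arrangement. It spanned 11.12 to 11.48 in sema6A morphants, 10.61 to 11.31 in plexinA2 morphants and 10.60 to 11.71 in controls, so that all 8 morphant arrays lay inside the control range. GATA3, expressed in neurons among other tissues, differed by −0.12 ± 0.34 in sema6A and −0.07 ± 0.34 in plexinA2 morphants.

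**Figure D2:**
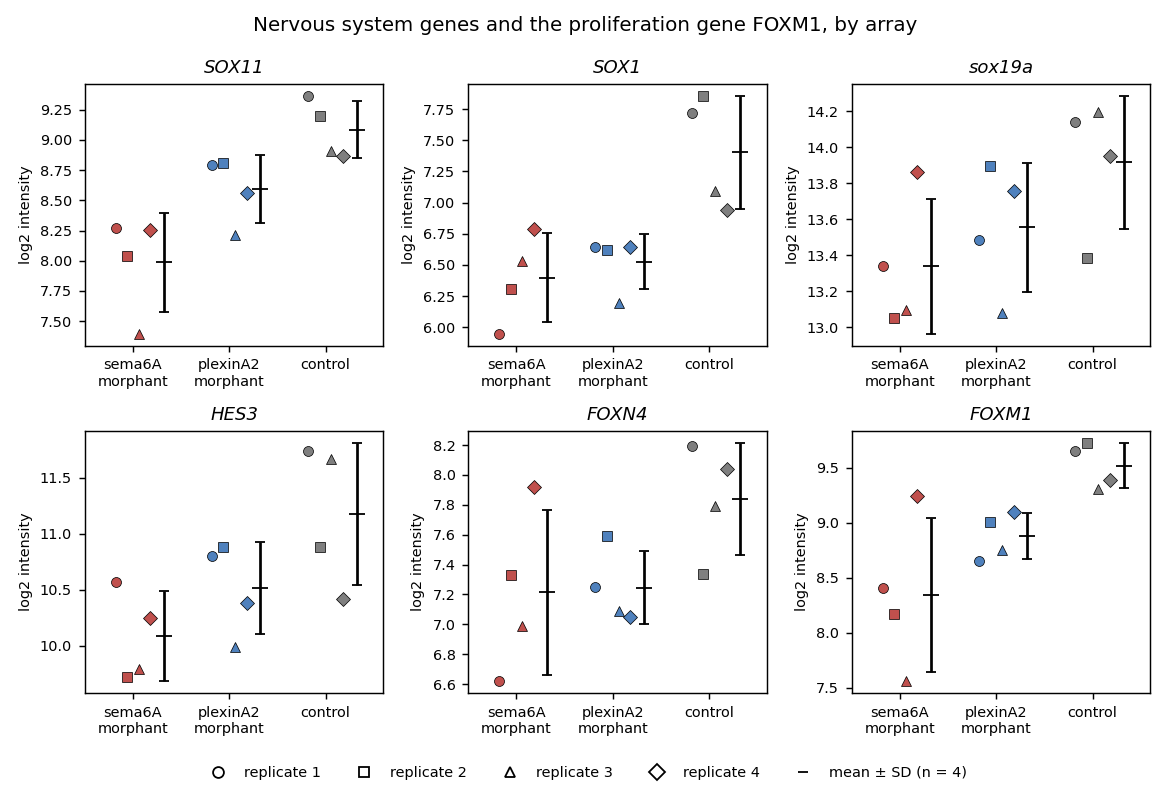
Log2 intensity (y axis) of 5 nervous system genes and FOXM1 in each array of the 3 groups (x axis), with marker shape for the replicate number and the mean ± SD (n = 4) beside the points. SOX11, SOX1 and FOXM1 have every morphant array below every control, while sox19a, HES3 and FOXN4 overlap.

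Of 11 neural progenitor marker names, 6 rows outside the families were measured, with NCAM1 in more than 1 of them. In sema6A morphants 5 of 6 were lower and 1 fell (FABP7, a radial glia gene), and the list's mean deviation from its level over the 12 arrays ranged from −0.98 to −0.18, against −0.33 to 0.98 in controls. In plexinA2 morphants none passed, 5 of 6 were higher and the range was 0.25 to 0.44. The lower row there was FABP7 (−1.02, limma adjusted p = 0.255). In plexinA2 morphants SOX1 and SOX11 thus lay below every control while the marker score lay inside the control range. The low end of that range, −0.33, was control replicate 2. Of 8 neuron marker names 3 rows were measured and none passed. Their mean deviation was −1.64 to 0.34 in sema6A morphants, 0.14 to 0.46 in plexinA2 morphants and −0.28 to 0.72 in controls. The part of these markers in the SOX and HES values was not tested.

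FOXM1, which drives genes of G2 and mitosis in dividing cells, was below control in every morphant array. Values were 8.40, 8.17, 7.56 and 9.25 in sema6A morphants, 8.65, 9.01, 8.75 and 9.09 in plexinA2 morphants, and 9.66, 9.73, 9.31 and 9.38 in controls. Controls were tight (SD 0.20) and sema6A morphants spread (SD 0.70), with replicate 4 close to the controls. The differences of −1.17 ± 0.32 (limma adjusted p = 0.0537) and −0.64 ± 0.32 (limma adjusted p = 0.321) did not pass. The sema6A difference of FOXM1 passed in 4 alternatives. Its adjusted p was 0.0469 without the dimmest rows, 0.0464 with log2(value + 50), 0.000948 with array weights, and 0.0102 without sema6A replicate 4, where it was −1.47.

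In all, 4 of 38 rows lay wholly below control in sema6A morphants (SOX11, SOX1, FOXM1 and TBX1), against 3.78% of all rows, and TBXAS1 lay wholly above, against 7.11%. In plexinA2 morphants 5 of 38 did (SOX11, SOX1, FOXM1, foxq1b and KLF9), against 4.48%, and 3 lay wholly above (foxj1b, FOXO1 and TBXAS1), against 7.27%. At an unadjusted p under 0.05, 8 of 38 were lower in sema6A morphants, against 8.71% of all rows, and 2 of 38 in plexinA2 morphants, against 5.69%. Higher at that threshold were 2 of 38 in sema6A morphants, against 11.9% of all rows, and 5 of 38 in plexinA2 morphants, against 11.6%.

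The forkhead gene foxj1b (ENSDARG00000088290), of the Foxj1 class that switches on the genes of motile cilia, was higher in plexinA2 morphants. Its log2 values there were 11.35, 10.86, 10.72 and 10.93, against 9.81, 9.49, 9.51 and 8.53 in controls. In sema6A morphants they were 10.48, 10.003, 9.92 and 9.67, between the other groups and overlapping controls only through sema6A replicate 4 and control replicate 1. The rise in plexinA2 morphants was 1.63 ± 0.31, or 3.10-fold (limma adjusted p = 0.00502). Leaving out any single array kept the adjusted p at or below 0.0273, and it was 0.00477 without control replicate 2. In sema6A morphants the difference was 0.68 ± 0.31 (limma adjusted p = 0.224). The plexinA2 arrays lay wholly above the sema6A arrays, and that direct difference, sema6A minus plexinA2, was −0.95 ± 0.31 (limma adjusted p = 0.0870), which did not pass.

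In the main fit, of all rows and all arrays with equal weights, the other forkhead genes did not pass in any comparison. FOXM1 passed in sema6A morphants in the alternatives given above. With array weights foxf2b, foxn1, FOXN4 and FOXO1 also passed there, and FOXN4, FOXO1 and foxq1b passed in plexinA2 morphants. Between the morphants FOXM1, foxn1 and foxq1b passed with those weights. FOXO1, a target of insulin and Akt signalling, had values of 8.69, 8.41, 8.81 and 8.73 in plexinA2 morphants, against 7.49, 8.26, 7.57 and 8.35 in controls, with no overlap (0.74 ± 0.31, limma adjusted p = 0.237). In sema6A morphants it spanned 8.03 to 9.02 and overlapped controls (0.64 ± 0.31, limma adjusted p = 0.256). Its relative FOXO4 differed from control by 0.17 ± 0.31 in sema6A and 0.31 ± 0.31 in plexinA2 morphants.

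foxq1b had values of 6.83, 7.62, 7.25 and 7.22 in plexinA2 morphants, just below the 7.65 to 8.71 of controls (−0.80 ± 0.37, limma adjusted p = 0.271), and 6.78, 8.47, 8.50 and 8.12 in sema6A morphants. FOXQ1, a second gene of that class, did not share this: its differences were 0.09 ± 0.31 and −0.05 ± 0.31. foxf2b, of mesenchyme and mural cells, was uneven among sema6A morphants, with 6.11 and 6.21 in replicates 1 and 2 and 8.53 and 7.996 in replicates 3 and 4, against 7.80 to 8.41 in controls. Its difference of −0.93 ± 0.44 (limma adjusted p = 0.241) thus came from 2 of 4 arrays.

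The ionocyte gene foxi3a differed by −0.44 ± 0.35 in sema6A and −0.52 ± 0.35 in plexinA2 morphants. The Nodal partner gene foxh1 differed by 0.14 ± 0.43 and 0.04 ± 0.43, and foxn1, a gene of the later thymus, by 0.26 ± 0.34 and −0.05 ± 0.34. The forkhead family had 6 members higher and 5 lower in sema6A morphants and 4 higher and 7 lower in plexinA2 morphants, so it had no common direction.

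The 4 T-box genes were all below control in sema6A morphants, with a median of −0.66, and divided evenly in plexinA2 morphants, with a median of 0.08. With array weights tbx21 was above control in sema6A morphants (0.65, limma adjusted p = 0.129). TBX1, a gene of the pharyngeal arches and outflow tract, had values of 8.95, 8.60, 8.21 and 9.33 in sema6A morphants, 9.85, 9.66, 9.12 and 9.31 in plexinA2 morphants, and 9.69, 9.92, 9.91 and 9.41 in controls. All sema6A arrays lay below all controls, while 2 of 4 plexinA2 arrays did. The differences were −0.96 ± 0.30 for sema6A (limma adjusted p = 0.0790) and −0.25 ± 0.30 for plexinA2 (limma adjusted p = 0.707). The sema6A difference of TBX1 passed without sema6A replicate 4 (−1.15, limma adjusted p = 0.0436) and with array weights (−1.16, 0.0023). Of 7 heart marker names 2 rows were measured and neither passed, with a mean deviation of −1.53 to −0.10 in sema6A morphants, −0.06 to 0.62 in plexinA2 morphants and −0.19 to 0.54 in controls. Their part in the TBX1 values was not tested.

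TBX4, a hindlimb and pelvic fin gene, was 7.52, 7.49, 8.47 and 8.05 in sema6A morphants and 8.72, 8.16, 8.57 and 8.43 in plexinA2 morphants, against 8.05, 10.40, 8.49 and 8.68 in controls. Control replicate 2 alone was high, and the sema6A difference of −1.02 ± 0.41 did not pass (limma adjusted p = 0.159). tbx21, known from T helper cells of mammals, was 9.20, 8.68, 9.24 and 8.56 in plexinA2 morphants and 7.05, 8.33, 7.73 and 7.03 in sema6A morphants, against 7.004, 7.93, 7.16 and 9.25 in controls. Control replicate 4 was as high as the plexinA2 arrays. The plexinA2 difference from control was 1.08 ± 0.43 (limma adjusted p = 0.207), and it passed without control replicate 4 (1.56, limma adjusted p = 0.0187).

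TBXAS1 lay above every control in both morphants, at 8.49, 9.05, 8.93 and 8.48 in sema6A and 8.74, 8.40, 9.34 and 8.26 in plexinA2 morphants, against 8.12, 7.79, 8.22 and 7.87 in controls. The differences of 0.74 ± 0.29 and 0.69 ± 0.29 did not pass (limma adjusted p = 0.158 and 0.241).

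The paraxial mesoderm and tailbud genes differed more among the control arrays than between the groups. tbx16, which directs cells into paraxial mesoderm, had values of 12.78, 11.78, 12.01 and 10.91 in sema6A morphants, 12.64, 12.54, 12.92 and 12.43 in plexinA2 morphants, and 13.15, 11.50, 13.10 and 11.17 in controls. Control replicates 1 and 3 were above all morphant arrays, and control replicates 2 and 4 below all plexinA2 arrays.

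The clock genes her1, her7 and her11 had the same high pair among controls. her1 was 11.85, 10.96, 12.32 and 10.81 in control replicates 1 to 4, her7 8.81, 6.72, 8.75 and 7.64, and her11 9.61, 8.41, 9.76 and 7.80. In each, control replicates 1 and 3 stood above replicates 2 and 4. In sema6A morphants her1 was 11.49, 10.82, 10.63 and 11.15, her7 8.67, 8.33, 7.05 and 8.17, and her11 9.52, 8.32, 8.62 and 8.44. In plexinA2 morphants her1 was 11.28, 11.03, 11.86 and 10.94, her7 8.42, 7.77, 7.90 and 7.56, and her11 9.58, 8.57, 8.60 and 8.42. Every group overlapped every other for these genes.

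her12, another clock gene, and HES6, whose zebrafish product pairs with clock Her proteins, did not have that high pair. her12 spanned 9.65 to 10.23 in sema6A morphants, 8.70 to 10.12 in plexinA2 morphants and 9.40 to 10.36 in controls, with control replicate 2 the highest. HES6 spanned 7.40 to 7.9998 in sema6A morphants, 6.84 to 7.89 in plexinA2 morphants and 6.59 to 8.43 in controls, with control replicate 2 the lowest.

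No paraxial member passed with equally weighted arrays. The largest difference from control in sema6A morphants was that of her1, −0.46 ± 0.35 (limma adjusted p = 0.492), and in plexinA2 morphants that of tbx16, 0.40 ± 0.44 (limma adjusted p = 0.682). Over the 6 genes the medians were −0.12 for sema6A and −0.15 for plexinA2 morphants. They ranged from −0.41 to 0.04 and from −0.32 to 0.13 when single arrays were left out. With array weights, which count control replicates 2 and 4 least among the controls, they were −0.82 and −0.58. Then tbx16, her1 and her11 passed as lower in sema6A morphants, and her1, her7 and her11 in plexinA2 morphants. The weighted plexinA2 difference of tbx16 changed sign, to −0.37 (limma adjusted p = 0.283). The weighted sema6A differences were −1.05 for her1 (limma adjusted p = 0.00811) and −0.97 for her11 (0.0213). With SEs of 0.33 to 0.44, the unweighted differences seen here were not detectable with 4 arrays a group.

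**Figure D3:**
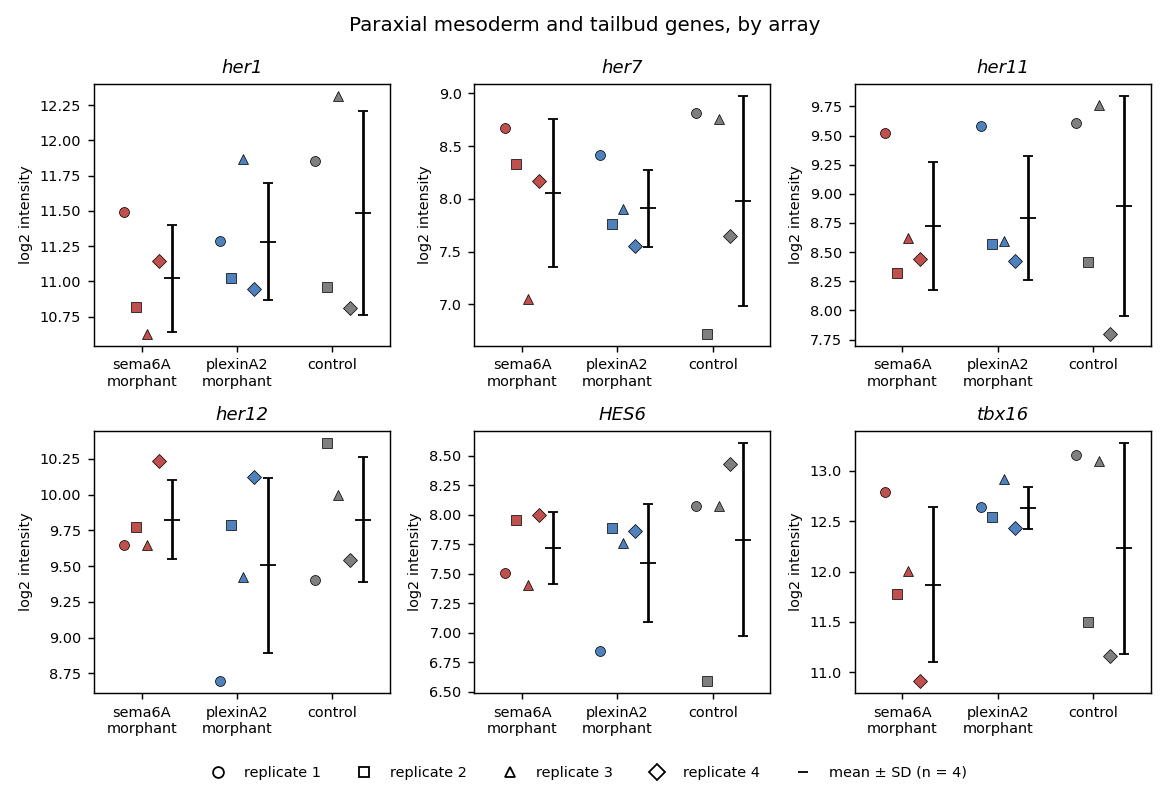
Log2 intensity (y axis) of the 6 paraxial mesoderm and tailbud genes in each array of the 3 groups (x axis), with marker shape for the replicate number and the mean ± SD (n = 4) beside the points. In tbx16, her1, her7 and her11 control replicates 1 and 3 are the 2 highest controls, and the groups overlap in all 6 genes.

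Of 14 other paraxial mesoderm and somite marker names, 6 rows were measured, and all 6 were lower than control in both morphants, with none past the test. Their mean deviation ranged from −0.35 to 0.17 in sema6A and from −0.34 to 0.04 in plexinA2 morphants, against −0.96 to 0.99 in controls, where replicate 2 was the highest. For this list control replicate 2 was thus at the opposite end from its place in her7 and HES6. Its part in the values above was not tested.

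Notch signalling, which induces many Her and Hes genes, had 5 of 42 listed genes measured. None passed in sema6A morphants. In plexinA2 morphants the ligand gene jag2a rose (1.56 ± 0.35, limma adjusted p = 0.0168) and the other 4, NOTCH1, dlb, jag1a and NRARP, did not pass. All 7 Her and Hes genes were below control in plexinA2 morphants, with a median of −0.21 and no call, and 4 of 7 in sema6A morphants, with a median of −0.07. Without single arrays the plexinA2 median ranged from −0.47 to −0.10. Some of those fits put her1, her7, her11 or HES6 above control, by up to 0.20. Of 35 genes of Nodal, FGF and Wnt signalling, partners of the forkhead and T-box factors, 11 were measured, and none passed in any comparison. Their medians were 0.02 in sema6A and 0.47 in plexinA2 morphants.

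The 3 Gata genes kept as members were split among the controls, and their differences between groups depended on how the arrays were weighted. The Gata values and medians here leave out gata1a, which was set aside. It fell in sema6A morphants against control (−1.59, limma adjusted p = 0.0103) and was −1.12 against plexinA2 morphants (limma adjusted p = 0.0669). GATA2, of blood stem cells, endothelium and some neurons, was 12.81, 11.63, 11.55 and 11.36 in sema6A morphants, 12.29, 11.47, 12.23 and 11.37 in plexinA2 morphants, and 12.50, 10.81, 12.47 and 10.68 in controls. GATA5, of heart and endoderm, was 12.72, 11.89, 11.99 and 11.54 in sema6A morphants, 12.03, 12.15, 12.47 and 11.96 in plexinA2 morphants, and 12.45, 11.80, 12.71 and 11.44 in controls. GATA3 was 12.13, 10.95, 11.44 and 11.13 in sema6A morphants, 12.05, 11.12, 11.42 and 11.28 in plexinA2 morphants, and 11.89, 11.53, 11.89 and 10.83 in controls. In all 3 genes sema6A replicate 1 was the highest sema6A array and control replicates 1 and 3 the highest controls.

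With equal weights the group differences of the Gata genes were small against that spread. For GATA2 they were 0.23 ± 0.44 in sema6A and 0.23 ± 0.44 in plexinA2 morphants, and for GATA5 −0.06 ± 0.33 and 0.06 ± 0.33 (limma adjusted p between 0.823 and 0.946). With array weights the GATA2 differences turned to −0.63 in sema6A and −0.69 in plexinA2 morphants (limma adjusted p = 0.13 and 0.0619), and the Gata medians were −0.60 and −0.45. The control SD of GATA2 was 1.01, a span of arrays from 10.68 to 12.50.

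**Figure D4:**
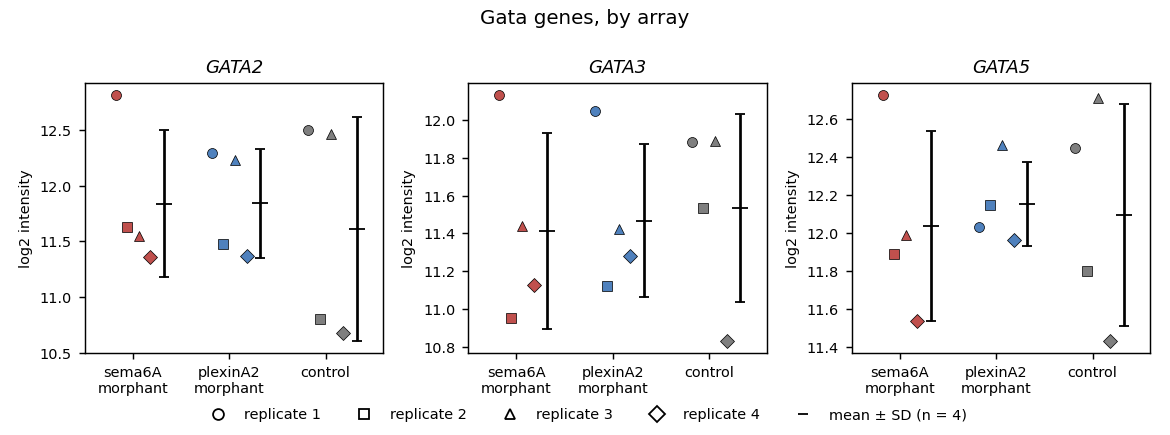
Log2 intensity (y axis) of the 3 Gata genes in each array of the 3 groups (x axis), with marker shape for the replicate number and the mean ± SD (n = 4) beside the points. Group means differ by at most 0.23, while GATA2 spans 10.68 to 12.50 within the controls.

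The order of the controls was counted over the families after these values were seen. Control replicates 1 and 3 were the 2 highest controls in 16 of 37 members, against 25.7% of all rows, and the 2 lowest in 8 of 37, against 27.2%. The 16 included all 3 Gata genes and 5 of 7 Her and Hes genes. The 8 were sox18, SOX6, FOXO1, FOXO4, tbx21, TBX4, KLF12 and klf6b. Differences from control of all these members average over controls in this order. The count ranks the controls and does not measure their gaps. For foxj1b the gap was narrow, with control replicate 3 at 9.51 and replicate 2 at 9.49.

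No Klf gene passed in any comparison in the main fit, of all rows and all arrays with equal weights. Between the morphants klf1 passed when only the morphant arrays were fitted (limma adjusted p = 0.0356) and with array weights (0.00444). KLF9 also passed between the morphants with array weights (limma adjusted p = 0.00103). klf1, which in mammals activates the globin genes of red cells, was 5.55, 5.55, 6.12 and 5.98 in sema6A morphants and 6.43, 6.92, 6.93 and 6.43 in plexinA2 morphants, against 6.18, 5.93, 5.68 and 6.71 in controls. It was dim, at the 2.5th percentile of row means. The morphants did not overlap each other, and sema6A minus plexinA2 was −0.88 ± 0.29 (limma adjusted p = 0.0900). Of 12 blood marker names 6 rows were measured, and hbae1.3, gata1a and alas2 of them fell in sema6A morphants against control. Between the morphants hbae1.3 and epb41b passed as lower in sema6A morphants (limma adjusted p = 0.0233 and 0.0266). In both comparisons 5 of 6 were lower, and SPI1 was higher in sema6A morphants (0.54 against control, 0.43 against plexinA2 morphants) without passing. The list's mean deviation was −1.47 to −0.56 in sema6A morphants, 0.34 to 0.41 in plexinA2 morphants and 0.11 to 1.42 in controls. Its part in the klf1 values was not tested.

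KLF9, a hormone-responsive gene in mammals, was 6.71, 6.81, 6.93 and 6.65 in plexinA2 morphants, just below the 6.95 to 7.56 of controls, and 7.60, 8.04, 7.58 and 6.90 in sema6A morphants. The plexinA2 difference from control was −0.49 ± 0.29 (limma adjusted p = 0.412). Sema6A morphants exceeded plexinA2 morphants by 0.76 ± 0.29 (limma adjusted p = 0.122), and sema6A replicate 4 lay among the plexinA2 arrays. klf6b was 5.94, 6.45, 7.13 and 6.25 in sema6A morphants, against 6.81, 7.65, 6.58 and 7.81 in controls, and overlapped them (−0.77 ± 0.34, limma adjusted p = 0.212).

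The endothelial gene klf2a, which responds to blood flow, differed by −0.24 ± 0.32 in sema6A and −0.21 ± 0.32 in plexinA2 morphants. The SoxF gene sox18, which acts in the same tissue, differed by −0.49 ± 0.35 and −0.42 ± 0.35. klf17, of the hatching gland and early blood in zebrafish, differed by 0.24 ± 0.38 and 0.34 ± 0.38. KLF11 differed by −0.48 ± 0.39 and −0.23 ± 0.39, and KLF12 by 0.23 ± 0.31 and 0.47 ± 0.31. The 4 members of blood and endothelium (GATA2, klf1, klf2a and sox18) had medians of −0.28 in sema6A and 0.0095 in plexinA2 morphants.

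Between the morphants, SOX6, foxj1b, tbx21 and klf1 did not overlap, 4 of 38 rows against 23.7% of all rows, and all 4 were lower in sema6A morphants, as 12.9% of all rows were. SOX6, which in zebrafish represses slow fibre genes in fast muscle, was 8.99, 9.72, 9.51 and 9.05 in sema6A morphants and 10.73, 10.13, 10.60 and 10.04 in plexinA2 morphants, against 9.07, 9.97, 8.72 and 10.30 in controls. Its direct difference was −1.06 ± 0.35 (limma adjusted p = 0.0871), and control replicate 4 lay among the plexinA2 arrays with replicate 2 just below them. For tbx21 it was −1.39 ± 0.43 (limma adjusted p = 0.0763). These 4 members passed when only the 8 morphant arrays were fitted, where 743 of all rows did. They also passed with array weights, where 2273 of all rows did. SOX6 passed as well without control replicate 2, and tbx21 without control replicate 2 or 4.

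Of 13 muscle marker names 8 rows were measured, all 8 lower in sema6A than in plexinA2 morphants with none past the test. Their mean deviation was −2.86 to −0.04 in sema6A morphants and 0.61 to 0.85 in plexinA2 morphants, against −0.51 to 1.36 in controls. Its part in the SOX6 values was not tested. The T-box genes had a median of −0.74 in the direct comparison, with all 4 lower in sema6A morphants, and tbx16 differed by −0.76 ± 0.44 (limma adjusted p = 0.272).

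**Figure D5:**
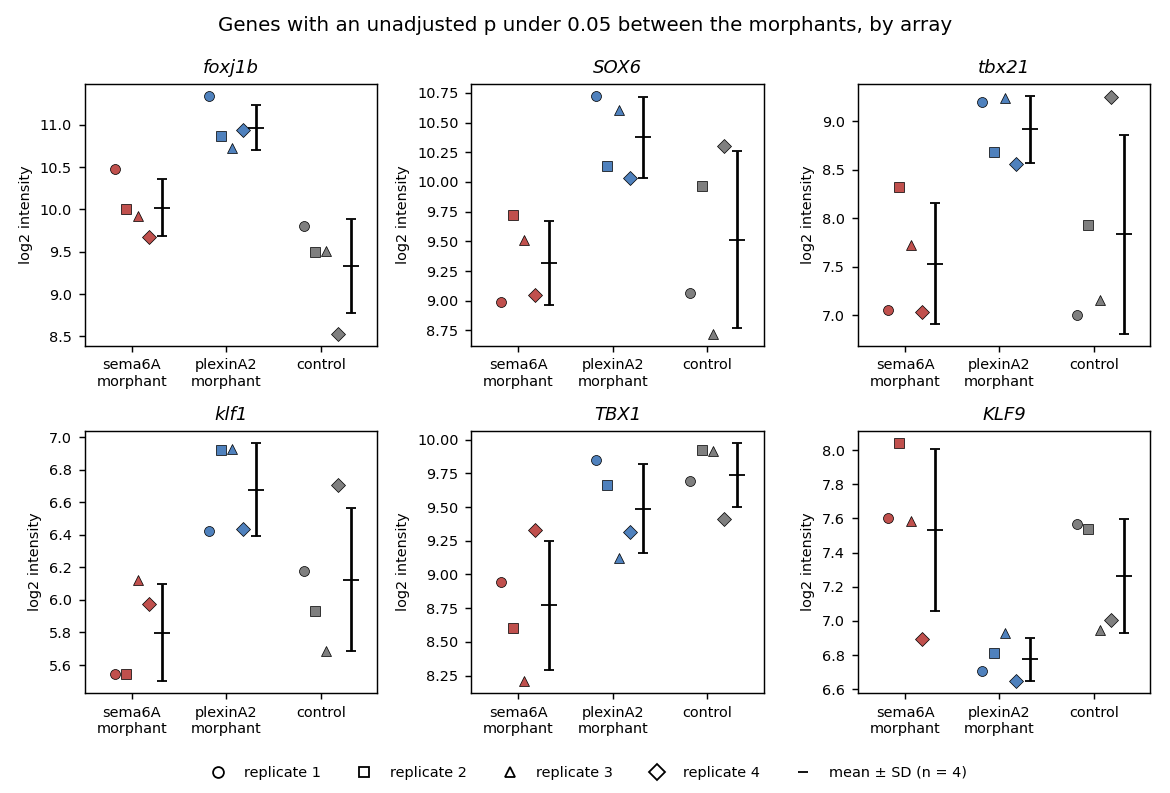
Log2 intensity (y axis) of 6 members with an unadjusted p under 0.05 between the morphants in each array of the 3 groups (x axis), with marker shape for the replicate number and the mean ± SD (n = 4) beside the points. foxj1b, SOX6, tbx21 and klf1 have all plexinA2 arrays above all sema6A arrays, and SOX6 and tbx21 have controls spread over both.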

How the data were processed

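Total RNA of 12 embryo samples, 4 per group, was hybridised to one-colour (Cy3) NimbleGen arrays. The values the authors deposited are intensities on a linear scale (26.3 to 42222), and the submitters' processing notes name RMA but give it no version. RMA fixes each array's overall level and can compress dim signals. The number of arrays limits the precision. Here log2 of each value, without any pseudocount, entered a linear model of all 5134 rows and 12 arrays (R 4.3.3, limma 3.58.1, functions lmFit and then eBayes), with group as the only term (9 residual and 9.54 prior degrees of freedom), two-sided, with Benjamini-Hochberg adjustment per comparison over all rows.

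Symbols came from a gene name table that matched 4349 rows. Rows outside the table used here, including those of the targeted genes, were not analysed here. The 38 members, tissue groups and marker lists were chosen with earlier results of these data known, so lists are described by counts and medians, with no set test. Named genes were members called in any comparison, those whose groups did not overlap, the 3 of smallest p per family and comparison, and all members of families of up to 6. Members were left out of the marker lists. Markers of hatching gland and yolk had no measured row outside the members, and the remaining lists stand in the closing section. The fit was tested on simulated data, with 100 rows changed by 1 and 100 by 2, up or down, in sema6A morphants. At an adjusted p under 0.05 against control it recovered 34 and 97 of them, with 15 false calls. Most changes of 1 were thus missed, and false calls exceeded the 0.05 share aimed at, in that single simulation. Its noise was independent between arrays and equal in spread across the groups, which the arrays here were not. Alternatives are given in the closing section.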

Additional observations from a re-analysis of the deposited data

Results flagged for a closer look

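In groups of 4 arrays, 5 of 114 sets of member values held 1 array far from the other 3, by Dixon's ratio of its gap to the whole range (above its 95% critical value), and chance gives about 1 in 20. SOX1 was low in plexinA2 replicate 3 (ratio 0.948, 6.19 against 6.62 to 6.64). In sema6A replicate 1, foxh1 was high (0.866) and foxi3a low (0.915). In plexinA2 replicate 1, her11 was high (0.849) and HES6 low (0.877). The part of the array in these values was not tested.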

How the results depend on the processing

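The call of foxj1b in plexinA2 morphants held in all alternatives run (adjusted p from 0.000109 to 0.0273), while that of SOX11 in sema6A morphants did not. The number of members called in sema6A morphants (1) was 2 without the dimmest 25 percent of rows (SOX11 and FOXM1), where 164 of all rows were called. It was 2 with log2(value + 50), where 192 of all rows were, and 5 at an adjusted p under 0.1, where 388 were. With only the groups compared it was 0, with a trended robust prior 0, and with array weights 16. Without single arrays it was 0 to 4. SOX1, SOX11, FOXM1 and TBX1 passed without sema6A replicate 4, where 226 of all rows did. SOX1, SOX11 and HES3 passed without control replicate 4, where 182 did. In plexinA2 morphants (1) the number was 13 with array weights and 1 to 2 without single arrays. There tbx21 was added without control replicate 4, where 326 of all rows were called. Between the morphants (0) it was 4 with only the groups compared and 13 with array weights. At an adjusted p under 0.1 it was 4, where 507 of all rows were called. Without single arrays it was 0 to 2, with 495 of all rows called without control replicate 2 and 248 without control replicate 4. Array weights, which count control replicate 2 least, called 1407, 1629 and 2273 of all rows, against 160, 147 and 88. The 16 in sema6A morphants were SOX1, SOX11, sox19a, foxf2b, FOXM1, FOXN4, TBX1, tbx16, KLF11, klf2a, her1, her11 and HES3, all lower, and foxn1, FOXO1 and TBXAS1, all higher. The 13 in plexinA2 morphants were SOX6, foxj1b, FOXO1 and tbx21, higher, and SOX1, FOXN4, foxq1b, KLF11, her1, her11, her7, HES1 and HES3, lower. Of the 13 between the morphants, SOX11, SOX6, foxj1b, FOXM1, TBX1, tbx16, tbx21, klf1 and HES3 were lower in sema6A morphants. The others, foxn1, foxq1b, KLF9 and HES1, were higher. With only the groups compared, 47 of all rows were called for sema6A and 743 between the morphants.

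With array weights the medians in sema6A morphants were −0.94 for Sox, −0.60 for Gata, −0.66 for Her and Hes, −0.94 for nervous system, −0.82 for paraxial and −0.50 for all members. In plexinA2 morphants they were −0.53 for Fox, −0.13 for T-box, −0.78 for Her and Hes, −0.30 for blood and endothelium, −0.45 for Gata (0.06 unweighted), −0.58 for paraxial and −0.43 for all members. GATA2 turned from higher to lower in both morphants. Other members that changed sign with array weights, without passing, included tbx16 in plexinA2 morphants (−0.37). In sema6A morphants they included tbx21 (0.65), SOX6 (0.45) and sox18 (0.19). Between the morphants the Sox median was −0.51. Without the dimmest rows, which leaves fewer genes, medians were 0.23 for Klf and −0.51 for heart, pharynx and endoderm in sema6A morphants, and 0.18 for Fox and 0.34 for Klf in plexinA2 morphants. Without single arrays, medians in sema6A morphants ranged from −0.19 to 0.20 for Fox, −0.89 to −0.56 for T-box, −1.15 to −0.57 for heart, pharynx and endoderm, and −0.30 to −0.0042 for all members. In plexinA2 morphants they ranged from −0.40 to 0.10 for Fox and −0.15 to 0.25 for T-box. Between the morphants they ranged from −0.92 to −0.68 for T-box, −0.23 to 0.0091 for blood and endothelium, −0.81 to −0.21 for heart, pharynx and endoderm, and −0.28 to −0.071 for all members. The cause of these shifts was not tested.

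The replicate number as a block left the member counts at 1, 1 and 0, with 158, 130 and 144 of all rows called. The labels do not state what same-numbered arrays share beyond the number. Correlations of their deviations ran from −0.24 to 0.36, and 3 of 12 arrays correlated best with their own number. Among member differences that were neither past an unadjusted p under 0.05 nor without overlap, 129 of 1628 values under alternatives changed sign. Differences of dim members can be compressed, which was not tested here.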

Other observations

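The remaining marker lists held few measured genes, and none of their rows passed in any comparison. The 4 measured of 7 notochord and floor plate names had a mean deviation of −0.35 to −0.05 in sema6A morphants, 0.16 to 0.48 in plexinA2 morphants and −0.29 to 0.08 in controls, so that plexinA2 arrays lay above both other groups. The 2 measured of 7 lens and placode names ran from −0.60 to −0.22 in sema6A morphants, 0.26 to 0.31 in plexinA2 morphants and −0.25 to 0.43 in controls. Lists of endothelium, endoderm, epidermis and ionocytes had 2 rows each and that of neural crest 1.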
